A study of Mus musculus with 4 samples.

Results

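Egr1, Junb, Ier2, Cyr61 and Ctgf were examined in cardiac neural crest cells (NCCs) of the mouse outflow tract (OFT) at E10.5. Egr1, Junb and Ier2 are immediate early genes, and Cyr61 and Ctgf encode matricellular proteins of the CCN family. The values were taken from all probe sets that a deposited list of differing probe sets assigns to exactly 1 of the 5 genes. There were 6 such probe sets, 2 of them for Cyr61, among the 45101 of the array. Probe sets of these genes outside that list, if any, were not examined. Because that list was made from the same contrast on the same arrays, the direction and size of the differences below are a description, and no test is given for them. The mutant NCCs came from NCC-specific ILK knockout (NKO) embryos, which carry Wnt1-Cre and are homozygous for a floxed Ilk allele (Wnt1-Cre;ILK f/f). The control littermates are Wnt1-Cre;ILK f/+ in the study's text, whereas the labels call them wild type, and which of these holds for the arrays was not settled here. By the study's text the controls also carry the Cre transgene and 1 floxed allele. OFTs of 1 genotype were pooled, digested with collagenase/dispase and trypsin, stained for β-galactosidase activity of the lineage reporter and sorted by FACS, and several sorts were combined for RNA extraction. According to the labels, each genotype has 2 biological replicates, measured on 1 Affymetrix mouse array apiece. The deletion is limited to cells that expressed Wnt1-Cre, and the number of embryos behind an array is unknown here. Whether the 2 replicates of a genotype came from separate pools of cells is not stated in the study's text. The standard errors below may therefore leave out spread between embryos or sorts.

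Immediate early genes are transcribed within minutes of a stimulus and need no new protein synthesis. Growth factors, serum, cell adhesion and mechanical stretch are known stimuli, and enzymatic digestion of tissue is another. They act through ERK signaling on transcription factors that are already present, among them serum response factor (SRF), which binds the CArG box. Cyr61 and Ctgf are also induced through YAP and TEAD factors when the actin cytoskeleton is under tension, and their products are secreted into the ECM, where they bind integrins. ILK, the deleted protein, sits at the cytoplasmic side of β1 and β3 integrins in focal adhesions.

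Promoter windows from RefSeq (GRCm38.p6) are shown for Junb and Cyr61, the members whose windows were used here, to place the letters of known response elements. Each window holds 250 bases before and 50 bases from the annotated start and is written 5′ to 3′ on the strand of the gene. Capitals mark matches on either strand to the TATA box of core promoters (letters TATAAA), the TEAD motif (GGAATG), the half-site of the cyclic AMP response element (TGACG), the AP-1 motif (TGANTCA), the binding motif of NF-Y (CCAAT), the motif of Sp1 factors known as the GC box (GGGCGG) and, by name, the CArG box. The TATA box of Cyr61 ends where its GC box begins. The windows of Egr1, Ier2 and Ctgf were not used here.
Junb, chr8:84978699-84978998, minus strand: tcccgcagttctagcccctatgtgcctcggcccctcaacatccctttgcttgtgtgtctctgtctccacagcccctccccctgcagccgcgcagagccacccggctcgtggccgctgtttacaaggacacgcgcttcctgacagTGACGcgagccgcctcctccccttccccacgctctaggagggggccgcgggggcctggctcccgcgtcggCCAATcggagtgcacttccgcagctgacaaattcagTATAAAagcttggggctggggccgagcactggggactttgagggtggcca
Cyr61 (now Ccn1), chr3:145649936-145650235, minus strand: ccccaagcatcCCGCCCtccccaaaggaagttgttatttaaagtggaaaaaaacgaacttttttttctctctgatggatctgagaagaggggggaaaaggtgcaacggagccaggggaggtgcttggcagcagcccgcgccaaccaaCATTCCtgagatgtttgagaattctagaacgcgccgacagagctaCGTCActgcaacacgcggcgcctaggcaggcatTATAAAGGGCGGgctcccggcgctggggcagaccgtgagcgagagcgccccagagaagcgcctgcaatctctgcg
Both windows hold a TATA box and a cyclic AMP response element half-site, and the TATA box of Junb begins at the annotated start itself. The Cyr61 window also holds a GC box on each strand. In the Cyr61 window, CATTCC begins 103 bases before the start and is the TEAD motif on the opposite strand. Junb has a CCAAT motif 36 bases before its start and no TEAD motif in this window. Of 32851 RefSeq windows of this length, 13.6% held TATAAA, 20.8% TGACG, 14.7% GGAATG, 37.4% CCAAT, 35.7% GGGCGG, 7.81% TGANTCA and 1.63% a CArG box. The last 2 motifs had no match in either window, and a match is a description of letters, not of binding.

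Ilk, the deleted gene, had intensities of 467.7 and 386.7 in the NKO arrays and 809.5 and 800.7 in the control arrays, in the direction of the labels. Median intensity lay between 75.9 and 79.3 over the 4 arrays, and correlations between arrays lay between 0.9948 and 0.9968. Values are linear intensities normalized by the authors, and log2 fold changes, NKO over control, were taken on the log2(intensity + 16) scale with limma standard errors. The offset of 16 narrows the differences of dim probe sets. With 2 arrays per genotype, a two-sided exact permutation test cannot give a p below 0.333, so that precision is limited by how few arrays there are. Over 45037 probe sets, limma passed 0 at an adjusted p under 0.05 (0% called), and 3972 had an unadjusted p under 0.05. With an intensity trend and robust variance moderation, limma called 0.695% of all probe sets higher and 0.46% lower.

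All 3 immediate early genes had a stronger signal in both NKO arrays than in both control arrays, with Egr1 showing the widest gap. Egr1, a zinc finger transcription factor gene induced by ERK signaling, had intensities of 256.6 and 251.8 in the NKO mutants, against 160.8 and 176.2 in the controls. The lowest NKO value was 1.43 times the highest control value, and the control arrays differed more from each other than the NKO arrays did. The log2 fold change of Egr1 was 0.55 (standard error 0.070), a 1.47-fold difference on the offset scale and 1.51-fold as the plain ratio of mean intensities. In bulk RNA, more cells that express a gene and more RNA per cell cannot be told apart.

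Junb encodes a subunit of the AP-1 transcription factor. Its intensities were 84.9 and 77.7 in the NKO mutants, against 55.8 and 56.3 in the controls. The groups did not overlap, and the spread lay in the NKO arrays, of which the first was the higher. Junb was the only member dimmer than the median probe set, so that its fold depended most on the offset. The log2 fold change was 0.43 (standard error 0.067), and it was 0.53 with an offset of 1 and 0.27 with an offset of 64. The plain ratio of mean intensities was 1.45.

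Ier2, the gene of a nuclear immediate early response protein, had the smallest difference and the closest replicates. Its intensities were 1208 and 1209 in the NKO mutants, against 1017 and 1011 in the controls. The log2 fold change was 0.25 (standard error 0.056), and the plain ratio was 1.19.

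Both CCN genes also had a higher signal in the 2 NKO arrays than in the 2 controls. Ctgf (now Ccn2), which encodes connective tissue growth factor, had intensities of 1028 and 1001 in the NKO mutants, against 770.1 and 742.2 in the controls. Replicates of a genotype lay close together, and the lowest NKO value was 1.30 times the highest control value. The log2 fold change of Ctgf was 0.42 (standard error 0.060), with a plain ratio of 1.34.

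Cyr61 (now Ccn1), which encodes a secreted ligand of several integrins, was read by 2 listed probe sets that gave the same direction and unequal sizes. Both probe sets had been listed as differing on these arrays, and nothing is read from their shared direction. The dimmer one had intensities of 371.8 and 334.2 in the NKO mutants, against 249.8 and 274.8 in the controls. For the brighter one, they were 544.1 and 508.9 in the NKO mutants and 421.8 and 426.0 in the controls. In both probe sets the first NKO array was the highest of the 4 and the first control array the lowest. Their log2 fold changes were 0.41 (standard error 0.088) and 0.30 (standard error 0.065) in the same order, and intervals of 1 standard error around them overlapped. The Affymetrix identifier of the brighter one marks probes that may also match other transcripts, and both read the same gene and are not independent of each other.

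**Figure D1:**
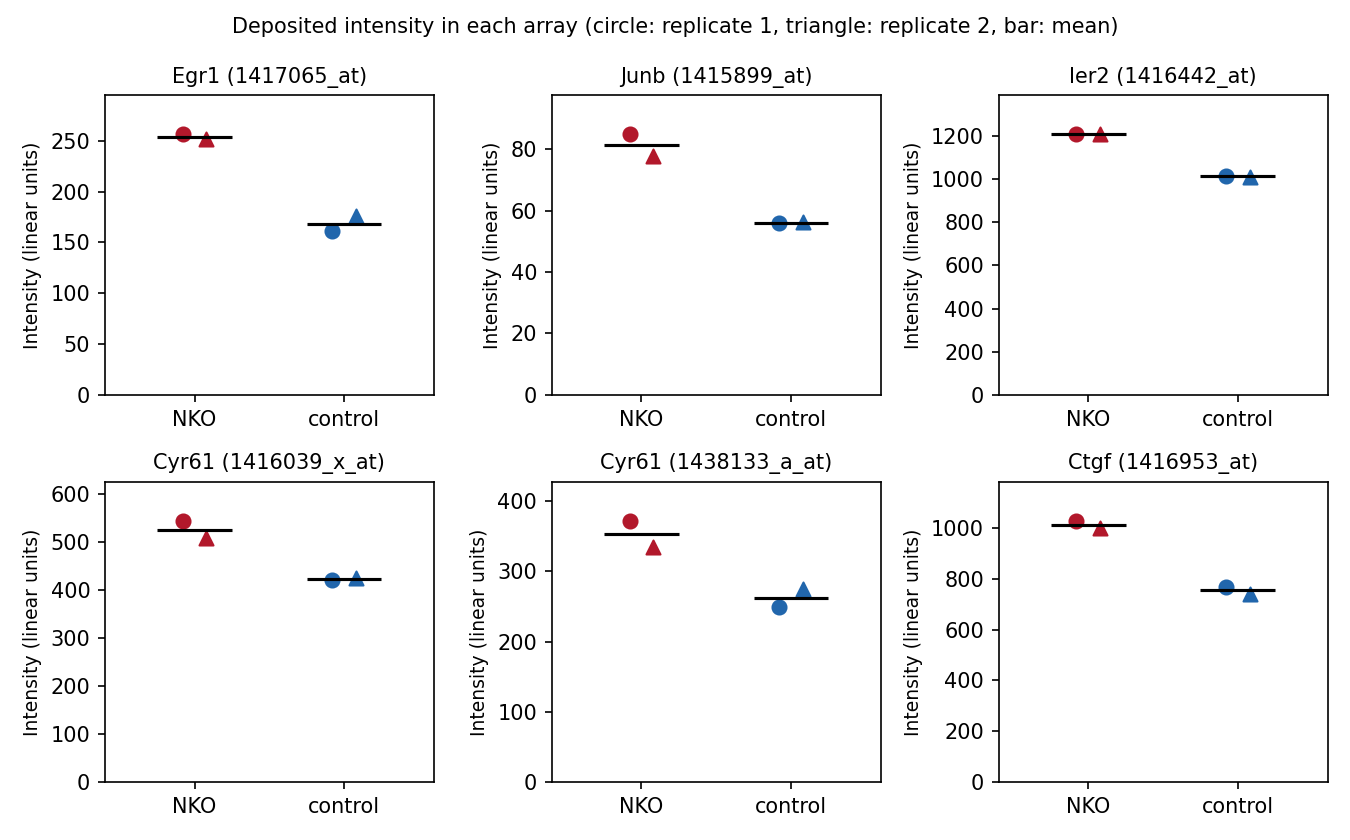
Deposited intensity (linear units, axis from 0) of the 6 probe sets in each array, with NKO left and control right and bars at the mean of 2 arrays. In every panel both NKO arrays lie above both control arrays, from 1.19 times (Ier2) to 1.51 times (Egr1) as the ratio of means.

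Over the 6 probe sets, log2 fold changes ran between 0.25 (Ier2) and 0.55 (Egr1) with a median of 0.41, beside 0.013 over all 45037 probe sets. The 2 NKO arrays lay above the 2 controls in 6 of 6 probe sets, an order found in 24.2% of all probe sets. None of the 6 reached the study's cutoff of 1.5-fold on the log2(intensity + 16) scale, which is not the scale of the study. On that offset scale, 0.286% of all probe sets passed it in the higher and 0.158% in the lower direction. As the plain ratio of mean intensities, Egr1 was at 1.51. Since the 6 were chosen from this contrast, nothing is read from these counts.

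Within a genotype, some members varied less than the median over all probe sets and others more. The first NKO array was higher than the second in 5 of 6 probe sets, by 0.026 (Egr1) to 0.15 (Cyr61, dimmer probe set) on the log2 scale, and Ier2 was level. Between the control arrays, Egr1 and the dimmer Cyr61 probe set differed most, by 0.12 and 0.13 with the second control the higher, while Junb and Ier2 differed by about 0.01. Over all probe sets, the median absolute difference was 0.10 between the NKO arrays and 0.078 between the controls. Without the second control array, the log2 fold change of Egr1 was 0.61 and Egr1 alone reached 1.5-fold. Without the first, it was 0.49.

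**Figure D2:**
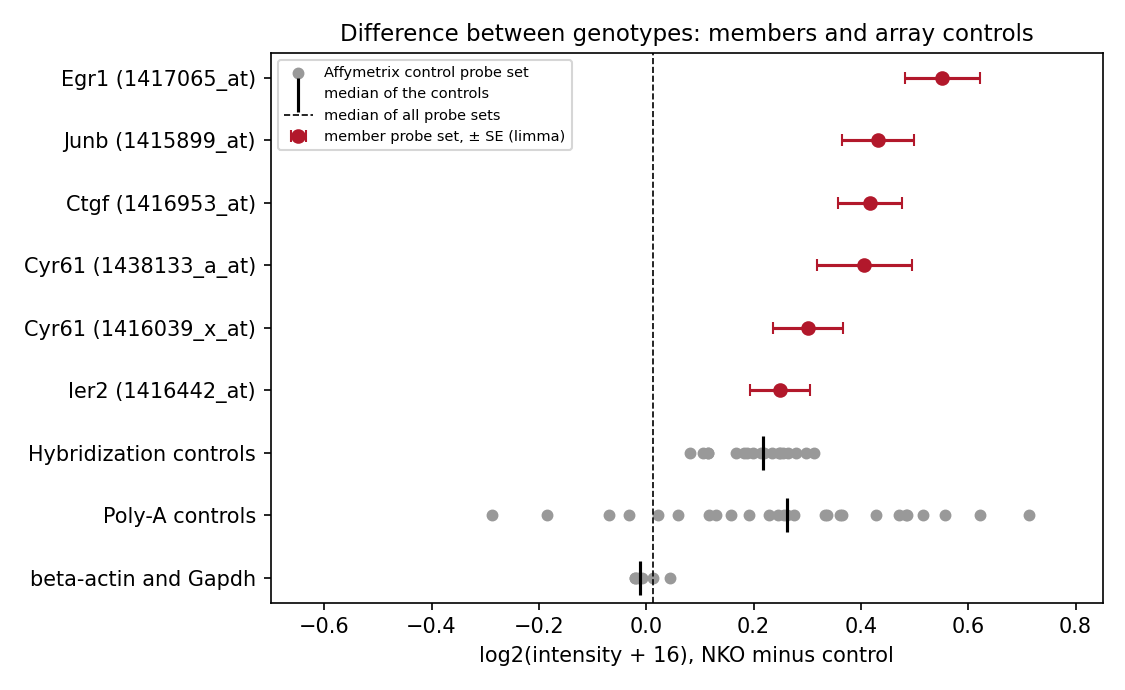
Difference in log2(intensity + 16), NKO minus control, for the 6 member probe sets (red, ± limma standard error) and for Affymetrix control probe sets (grey, with a black bar at the median). The members lie between 0.25 and 0.55, the 18 hybridization controls between 0.08 and 0.31 and the 27 poly-A controls between −0.29 and 0.71, and the dashed line is the median of all probe sets at 0.013.

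Affymetrix control transcripts differed in the same direction as the members. The 18 hybridization control probe sets read a smaller number of bacterial and phage transcripts, meant to be added in fixed amounts before hybridization. They had median intensities of 1775 and 1649 in the NKO arrays, against 1372 and 1485 in the controls. Several of these probe sets read the same transcript, as do several poly-A control probe sets, so they are not independent of each other. All 18 were higher in both NKO arrays than in both controls, with log2 differences between 0.08 and 0.31 and a median of 0.22. The difference of Ier2, 0.25, and that of the brighter Cyr61 probe set, 0.30, lay within this range, while those of Egr1, Junb, Ctgf and the dimmer Cyr61 probe set lay above it. Among 27 poly-A control probe sets, 15 were higher in both NKO arrays and 2 lower, with a median of 0.26. Most of these were dim, with median intensities of 52.3 and 43.1 in the NKO arrays and 34.8 and 31.2 in the controls, and their log2 differences ran between −0.29 and 0.71, a range that held all 6 members. When each array was centred on its hybridization controls, log2 fold changes of the 6 members ran between 0.04 (Ier2) and 0.34 (Egr1). Their standard errors were then 0.13 each, larger than the fold changes of Ier2 and of the brighter Cyr61 probe set (0.095). That centring also put the median of all probe sets at −0.19, so that the members' distance from the other probe sets was the same. The 6 β-actin and Gapdh control probe sets had a median difference of −0.01. The ratio of 3′ to 5′ β-actin signal was 1.38 and 1.43 in the NKO arrays and 1.37 and 1.38 in the controls. The part of the control transcripts in the members' differences was not tested.

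**Figure D3:**
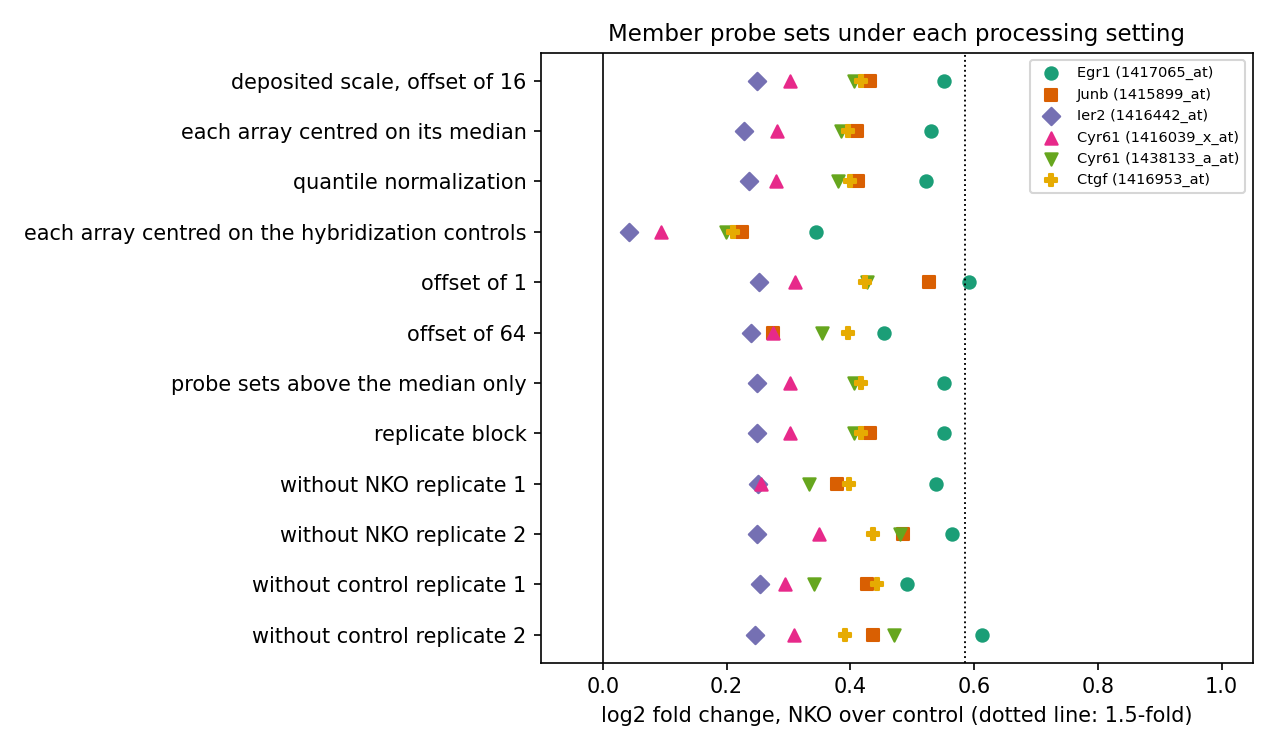
Log2 fold change (NKO over control) of each member probe set under the deposited scale and each other setting, with a solid line at 0 and a dotted line at 1.5-fold. All points lie above 0, and Egr1 alone crosses 1.5-fold, with an offset of 1 (0.59) and without control replicate 2 (0.61).

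Few other genes of these pathways could be followed, because gene names came only from the deposited table of differing probe sets. Of 45 genes listed as immediate early, 6 had a probe set named there, the 5 members and Klf6, a Krüppel-like transcription factor gene. Cyr61 and Ctgf were thus counted in this wider list, and they are counted again among the YAP and TEAD targets below. Klf6 had intensities of 154.3 and 145.9 in the NKO mutants and 115.1 and 123.9 in the controls, a log2 fold change of 0.29 (standard error 0.069). All 6 were higher in the NKO mutants (median 0.36). Since all 6, Klf6 included, came from the list of differing probe sets, nothing is read from this count. Of the 542 genes named alone in that list, 321 were higher. The other 39 genes of the list, such as Fos, Jun and Atf3, and the other CCN genes were not analysed here. No gene of the heat shock list was named there, and of 14 ERK feedback genes Spred1, an inhibitor of Ras-ERK signaling, was the only one, at 0.24 (standard error 0.066).

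Genes known as YAP and TEAD targets went both ways. Of 25 listed genes 6 were named, 3 higher and 3 lower, with a median of 0.016. Beside Ctgf and Cyr61, Jub (now Ajuba), a LIM protein of cell junctions, was higher at 0.26 (standard error 0.061). Arhgef17 was lower at −0.47 (standard error 0.16), Fjx1, a homolog of a Drosophila Golgi kinase, at −0.24 (standard error 0.080) and Tgfb2, the TGFβ2 ligand gene, at −0.23 (standard error 0.069). Tgfb2 had intensities of 940.8 and 1019 in the NKO mutants, against 1157 and 1138 in the controls. Both NKO arrays lay below both controls, an order found in 18.4% of all probe sets. The 6 genes were named only because they were on the authors' list of differing probe sets. Among the 542 genes named alone in that list, 321 were higher and 221 lower, and nothing is read from the 3 and 3 here.

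Genes of the actin cytoskeleton, many of them targets of SRF, were mostly higher with the members. Of 26 such genes 9 were named and 8 of these were higher, with a median of 0.26. The largest difference was that of Tagln, the smooth muscle protein transgelin, with intensities of 1978 and 1919 in the NKO mutants, against 1412 and 1448 in the controls, a log2 fold change of 0.44 (standard error 0.059). Cald1, the actin-binding caldesmon, was at 0.38 (standard error 0.080), Tagln2 at 0.33 (standard error 0.087), Cnn2, a calponin gene, at 0.32 (standard error 0.059) and Tpm2, a tropomyosin gene, at 0.26 (standard error 0.059). The focal adhesion genes Vcl and Zyx were at 0.22 each (standard errors 0.059 and 0.058). Tpm1, another tropomyosin gene, was the lower one at −0.29 (standard error 0.061), and Lima1 was at 0.22 with a wide error of 0.14. Every gene named here had been selected on these arrays by the authors, and over the 542 genes named alone in their table, 321 higher and 221 lower, the median was 0.24.

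**Figure D4:**
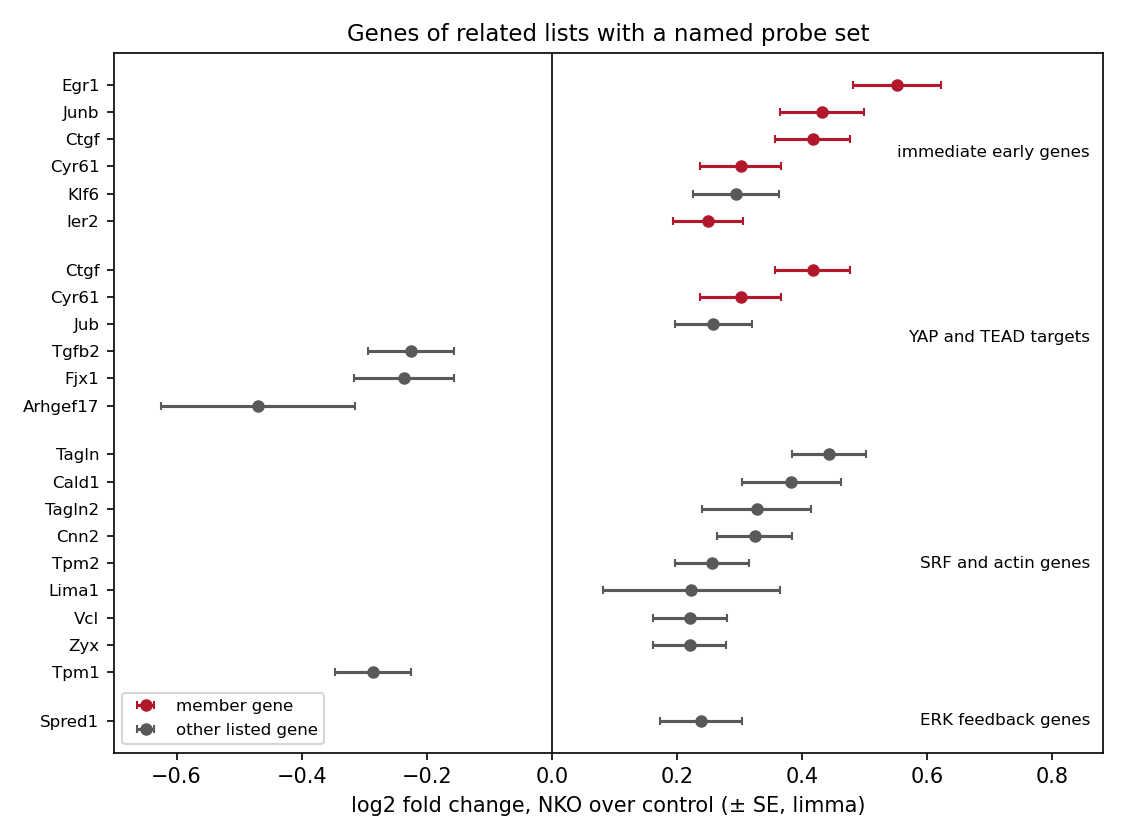
Log2 fold change (NKO over control, ± limma standard error) of the listed genes that had a named probe set, each by its brightest one, with the member genes in red. Immediate early genes lie at 0.25 or higher, YAP and TEAD targets on both sides of 0, and actin genes above 0 except Tpm1. Cyr61 and Ctgf are shown both as immediate early genes and as YAP and TEAD targets.

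Across the 4 arrays, the named genes with the profile closest to the mean of the members were Mogat2, Igdcc3, Rgs4, Tagln and Rtn1. Likeness was the Euclidean distance between log2 values centred on their mean over the 4 arrays, and it ran between 0.024 (Mogat2) and 0.055 (Rtn1). The members themselves lay 0.056 (Ctgf), 0.057 (Junb), 0.093 (Cyr61), 0.15 (Ier2) and 0.18 (Egr1) from that mean. Mogat2, an acyltransferase gene of lipid synthesis, had intensities of 273.1 and 263.1 in the NKO mutants and 203.6 and 201.9 in the controls. Igdcc3, Rgs4, Tagln and Rtn1 had both NKO arrays above both control arrays, with log2 fold changes of 0.36 to 0.44. The 5 genes were picked for their likeness to the members, from genes that the authors had listed as differing. Their order and size of difference follow from that choice, and nothing is read from them.

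Markers of other cell types in the sorted samples were higher in the NKO mutants for some cell types and lower for others. Every named marker came from the authors' list of differing probe sets. Of the 542 genes named alone there, 321 were higher and 221 lower, and nothing is read from the counts below. All 11 named of 13 neuronal markers were higher, with summed intensities of 4491 and 4277 in the NKO arrays, against 2393 and 2395 in the controls. All 9 named of 12 platelet markers were higher as well, at 4050 and 3954 in the NKO arrays and 2310 and 2280 in the controls. The 4 named of 11 myeloid markers summed to 669.9 and 627.0 in the NKO arrays and 434.8 and 423.9 in the controls. Both named red blood cell markers of 9 and both named endothelial markers of 8 were higher by 0.23 to 0.32. Of 8 smooth muscle markers 4 were named and 3 were higher, summing to 3734 and 3695 in the NKO arrays and 2908 and 2962 in the controls, but all 4 (Tagln, Cald1, Tpm1 and Tpm2) are the probe sets already counted among the actin genes. The opposite order was found for 4 named of 8 skeletal muscle markers (773.3 and 772.9 in the NKO arrays, 1100 and 1128 in the controls), 4 of 10 heart muscle markers and 3 of 8 endoderm markers. No named marker was at 0, the lowest being Alb at 11.7. Of 22 markers of the neural crest and its mesenchyme, 4 were named, with Pax3, Prrx1 and Msx2 higher and Meox1 lower in the NKO mutants. Prrx1, a transcription factor gene of mesenchyme, had intensities of 4717 and 4698 in the NKO arrays, against 4072 and 3910 in the controls. Sox10, Foxd3 and Tfap2a were not analysed here, so that the labelled cell type could not be checked against them. The part of these markers in the members' differences was not tested.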

How the data were processed

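RNA of sorted cardiac NCCs was hybridized to Affymetrix mouse genome arrays, 2 per genotype. The authors deposited normalized linear intensity values of 45101 probe sets. Their processing notes list Affymetrix Expression Console, with the algorithm and version not given in the sources used. For the member probe sets, the averaged control columns matched the control intensity that the authors deposited in their own table within 0.00642%. That table, made with VAMPIRE, holds 766 probe sets with fold changes and p-values, which were not used. Its gene names were used, 603 probe sets having 1 name.

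The 64 Affymetrix controls were left out. The other 45037 probe sets were compared, as log2(intensity + 16), in limma 3.58.1 (R 4.3.3; lmFit, eBayes) with Benjamini-Hochberg adjustment (threshold 0.05), without a replicate block. This fit was tested on simulated data with known changes. Members and gene lists were chosen with earlier results of these data known. Named were all member probe sets, Ilk, listed genes with a name of their own by their brightest probe set (at most 8 per list by size), and the 5 closest profiles; Zyx, Alb and other markers were added after their values were seen. Tried besides were other scalings, offsets of 1 and 64, a filter on dim probe sets, an intensity trend, the methods' t-test, a block, and leaving out each array. Centring on hybridization controls was chosen after seeing the data. Promoters were searched on both strands. Python 3.11.15, pandas 2.3.3 and matplotlib 3.10.9 were used.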

Additional observations from a re-analysis of the deposited data

Results flagged for a closer look

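A signal outside the gene comparison differed between the genotypes. The hybridization controls were higher in the NKO arrays than in the controls by a median of 0.217 on the log2 scale, and the poly-A controls by a median of 0.262. Groups of 2 arrays are too small for a check of single arrays that stand apart.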

How the results depend on the processing

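The log2 fold changes of all 6 member probe sets were above 0 under each setting that held them, though not always by more than their standard error. The filter on dim probe sets left Junb out. Centring on hybridization controls gave log2 fold changes of 0.34 for Egr1, 0.22 for Junb, 0.043 for Ier2, 0.095 and 0.20 for the brighter and dimmer Cyr61 probe sets and 0.21 for Ctgf (median 0.20). Standard errors under that centring were 0.13 each, so that Ier2 and the brighter Cyr61 probe set lay within 1 standard error of 0. An offset of 64 gave 0.45 for Egr1, 0.27 for Junb and 0.24 for Ier2 (median 0.31), and an offset of 1 gave 0.53 for Junb. Ier2 was at 0.23 after median centring and at 0.24 after quantile normalization. Leaving out an array gave medians between 0.36 and 0.46. The number of members at 1.5-fold was 1 with an offset of 1 and 0 to 1 without an array, against 0 otherwise. All probe sets at 1.5-fold numbered 129 higher and 71 lower, with 27 and 546 after centring on hybridization controls, 1778 and 1557 with an offset of 1, 23 and 13 with an offset of 64, 38 and 11 above the median intensity, 110 and 87 after median centring, and 226 to 387 and 145 to 259 without an array. Against 0 in limma, the adjusted threshold was passed by 520 probe sets with an intensity trend and robust moderation, 834 after centring on hybridization controls, 60 with an offset of 64 and 51 above the median intensity. The methods' t-test passed 3973 at its own threshold and 0 after Benjamini-Hochberg adjustment. Same-numbered arrays did not deviate together (r = −0.033 over 45037 probe sets), and with the replicate block the median stayed at 0.41 with 0 probe sets past the threshold. The causes of these shifts were not tested.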

Other observations

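Of the 3 probe sets for 18S ribosomal RNA, the middle one in brightness had intensities of 1684 and 746.5 in the NKO arrays, against 984.5 and 938.5 in the controls. The first NKO array was the highest in all 3. In the brightest of the 3, the second NKO array (1078) lay between the controls (1261 and 1068), and in the others it was the lowest. Lima1 had intensities of 785.9 and 603.9 in the NKO mutants and 590.9 and 585.5 in the controls, with the first NKO array alone standing apart.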
